A study of Homo sapiens with 19 samples.

Results

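The genes described here are 10 that act on 2 lysines of histone H3: the H3K4 methyltransferases KMT2A, KMT2B, KMT2C, KMT2D, SETD1A and SETD1B, their partner proteins ASH2L and MEN1, and the H3K27 demethylases KDM6A and KDM6B. They were taken by symbol, whatever their values, from 2 tables of normalized counts that each list 34825 gene symbols. All 10 were found and passed the filter on low values in both tables. The RNA came from HepG2, a human liver cancer cell line kept for few passages, 72 h after transfection with 50 nM of siRNA. In the INO80 experiment the cells received NTG, the control siRNA, or siINO80#1 or siINO80#2, each directed at INO80, with 3 libraries per group. In the drug experiment either DMSO or 1 uM of EPZ-6438, which blocks the catalytic activity of EZH2, was added 3 days ahead of transfection with NTG or with siMCRS1, an siRNA against MCRS1. That experiment held 2 libraries of DMSO with NTG, 3 of DMSO with siMCRS1, 3 of EPZ-6438 with NTG and 2 of EPZ-6438 with siMCRS1. INO80 is the ATPase of the INO80 chromatin remodeling complex, and MCRS1 is a subunit of that complex and also of a histone acetyltransferase complex. EPZ-6438 acts on the EZH2 protein, so an mRNA level does not show whether the compound acted. Each experiment used a single cell line and a single control siRNA, and all comparisons with an siRNA in an experiment share its NTG libraries.

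Methylation of H3K4 marks active promoters and enhancers. SETD1A and SETD1B carry out most trimethylation at active promoters, KMT2A and KMT2B act at promoters of selected genes including developmental ones, and KMT2C and KMT2D place monomethylation at enhancers. All 6 enzymes work in complexes built on a shared core of WDR5, RBBP5, ASH2L and DPY30, of which ASH2L is needed for full catalytic activity. MEN1 encodes menin, a subunit of the KMT2A and KMT2B complexes that links them to chromatin. KDM6A (UTX) and KDM6B (JMJD3) remove methyl groups from H3K27, the mark that EZH2 places, and KDM6A is itself a subunit of the KMT2C and KMT2D complexes. KDM6B is an inducible enzyme, best known from inflammatory and developmental signalling.

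The most extreme fold changes of the members were those of ASH2L, MEN1 and KDM6B. ASH2L mRNA fell to 67.7% of NTG with siINO80#1, to 52.4% with siINO80#2, and to 68.3% with siMCRS1 in DMSO. MEN1 fell to 52.5% and 46.9% with siMCRS1 (in DMSO and EPZ-6438, respectively), and to 71.3% with siINO80#2, but stood at 100% of NTG with siINO80#1, where it did not pass the test. KDM6A fell modestly with both INO80 siRNAs, to 84.1% and 78%, and its siINO80#1 call was lost without any single one of the 6 libraries compared. KDM6B rose to 191% with siINO80#2, a mean raised by library C, at 1873 normalized counts against 1111 and 1048. Without that library its log2 fold change was 0.62 instead of 0.88. EPZ-6438 against DMSO called none of the 10 genes at either siRNA, where 0.384% (NTG) and 0.0908% (siMCRS1) of all tested genes were called, so that 0 of 10 is no result about these genes.

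The stretches directly upstream of KDM6A, KDM6B and KMT2C are shown because the demethylases moved in opposite directions with siINO80#2 and because every knockdown library of KMT2C lay above the NTG libraries of its comparison. Each is the 250 bases before the gene's start in RefSeq on GRCh38.p14, the build name in the submitters' processing notes, written 5′ to 3′ on the gene's strand. KDM6A lies on chromosome X from 44873188 to 45112779, KDM6B on chromosome 17 from 7834217 to 7854796, and KMT2C on chromosome 7 from 152134925 to 152436003. The windows are chrX:44872938-44873187 on the plus strand, chr17:7833967-7834216 on the plus strand and chr7:152436004-152436253 on the minus strand.
KDM6A: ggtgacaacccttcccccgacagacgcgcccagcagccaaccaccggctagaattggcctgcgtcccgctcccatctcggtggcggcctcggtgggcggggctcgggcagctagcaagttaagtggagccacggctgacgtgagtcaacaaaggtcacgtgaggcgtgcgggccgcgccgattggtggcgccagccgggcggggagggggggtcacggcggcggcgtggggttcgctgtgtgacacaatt
KDM6B: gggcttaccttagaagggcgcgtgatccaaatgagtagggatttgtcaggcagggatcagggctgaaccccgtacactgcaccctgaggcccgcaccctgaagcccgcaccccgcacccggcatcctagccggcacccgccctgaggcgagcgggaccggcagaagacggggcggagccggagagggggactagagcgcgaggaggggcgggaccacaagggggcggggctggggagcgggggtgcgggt
KMT2C: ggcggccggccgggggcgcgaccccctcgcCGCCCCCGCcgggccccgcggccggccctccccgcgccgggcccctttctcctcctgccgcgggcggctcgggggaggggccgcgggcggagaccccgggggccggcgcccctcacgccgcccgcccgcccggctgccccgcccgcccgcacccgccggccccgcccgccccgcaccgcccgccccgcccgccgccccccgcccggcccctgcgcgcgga
Capitals mark a match to GCGNGGGCG, the letters bound by EGR factors, searched on both strands. Among 35116 RefSeq windows of this length 8.41% held such a match. Of the 8 members searched, KMT2C and KMT2B held one, and ASH2L and SETD1B were not searched. None of these members' windows held AANATGG, letters bound by YY1, a DNA-binding protein found in the INO80 complex, which occurred in 11.6% of all windows on either strand. Matches to the 2 motifs therefore did not overlap, and a match is a description of the letters only.

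The values are gene counts that the authors divided by 1 size factor per library, called normalized counts here. Dividing by the step of each library gave whole numbers, taken as reads, so that the depth was 17093574 to 25369547 reads per library with the INO80 siRNAs and 26038505 to 47397233 in the drug libraries. A count of 3 reads was worth at most 3.58 and 4.30 normalized counts in these experiments, far below every member, and covers counting error only. No replicate pair of 17 agreed within sampling noise. The labels do not say that replicates came from separate cultures, so p-values measure the spread between these libraries only. The 8 hepatic markers examined, among them ALB, AFP and APOB, were well above 0 in every library, and of the 6 markers of immune, endothelial and fibroblast cells only PECAM1 and COL1A1 exceeded 100 normalized counts anywhere. The summed level of those 6 was 357 to 367 in NTG, 446 to 488 in siINO80#1, 366 to 458 in siINO80#2, 429.9 to 508 in DMSO with NTG, 626 to 987 in DMSO with siMCRS1, 231 to 406 in EPZ-6438 with NTG and 762 to 921 in EPZ-6438 with siMCRS1, against sums of at least 579770 for the hepatic markers, and its part in the results was not tested. INO80 mRNA fell to 48.1% and 36.4% of NTG with its siRNAs, and MCRS1 mRNA fell to 7.99% and 7.93% with siMCRS1. In these bulk libraries fewer cells with a transcript and less of it per cell cannot be told apart.

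One property of the libraries moved with the groups and bears on the long members. The median of genes with transcripts of at least 8 kb minus that of genes under 2 kb, each taken as a difference from the mean of the table on the log2 scale, was -0.25 to -0.22 in NTG, 0.04 to 0.13 in siINO80#1 and 0.02 to 0.35 in siINO80#2. In the drug experiment it was -0.28 and -0.01 in DMSO with NTG, -0.03 to 0.38 in DMSO with siMCRS1, -0.44 to 0.01 in EPZ-6438 with NTG, and 0.07 and 0.23 in EPZ-6438 with siMCRS1. Long transcripts thus stood higher, relative to short ones, in every siINO80 library than in every NTG library. KMT2A, KMT2C and KMT2D have transcripts of 16.6, 16.9 and 20.6 kb, KMT2B and SETD1B of 8.49 and 8.56 kb, SETD1A, KDM6A and KDM6B of 5.99, 6.09 and 6.73 kb, and ASH2L and MEN1 of 2.92 and 2.71 kb. The comparisons were therefore also fitted after the trend of each library on transcript length was removed, and values of that fit are given where they bear on a call.

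Per kilobase of transcript, the members differed widely in level in cells with NTG. ASH2L was the most abundant, at 709 ± 11.9 normalized counts per kb in the INO80 experiment (SD, n = 3), followed by MEN1 at 258 ± 12.1 and SETD1A at 181 ± 10.4. KMT2D (139 ± 5.67), KMT2A (128 ± 9.51), KDM6A (125 ± 2.83), KMT2C (114 ± 4.01), KMT2B (111 ± 9.26) and KDM6B (105 ± 9.48) followed closely. Neighbours overlapped between libraries from KMT2D to KMT2A, from KMT2A to KDM6A, from KMT2C to KMT2B and from KMT2B to KDM6B. SETD1B was lowest, at 67.9 ± 1.59. The DMSO with NTG libraries gave the same first 3 genes, ASH2L at 1279 ± 209.5, MEN1 at 422 ± 69.5 and SETD1A at 239.7 ± 4.53 per kb (SD, n = 2), with SETD1B and KDM6B last and overlapping.

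**Figure D1:**
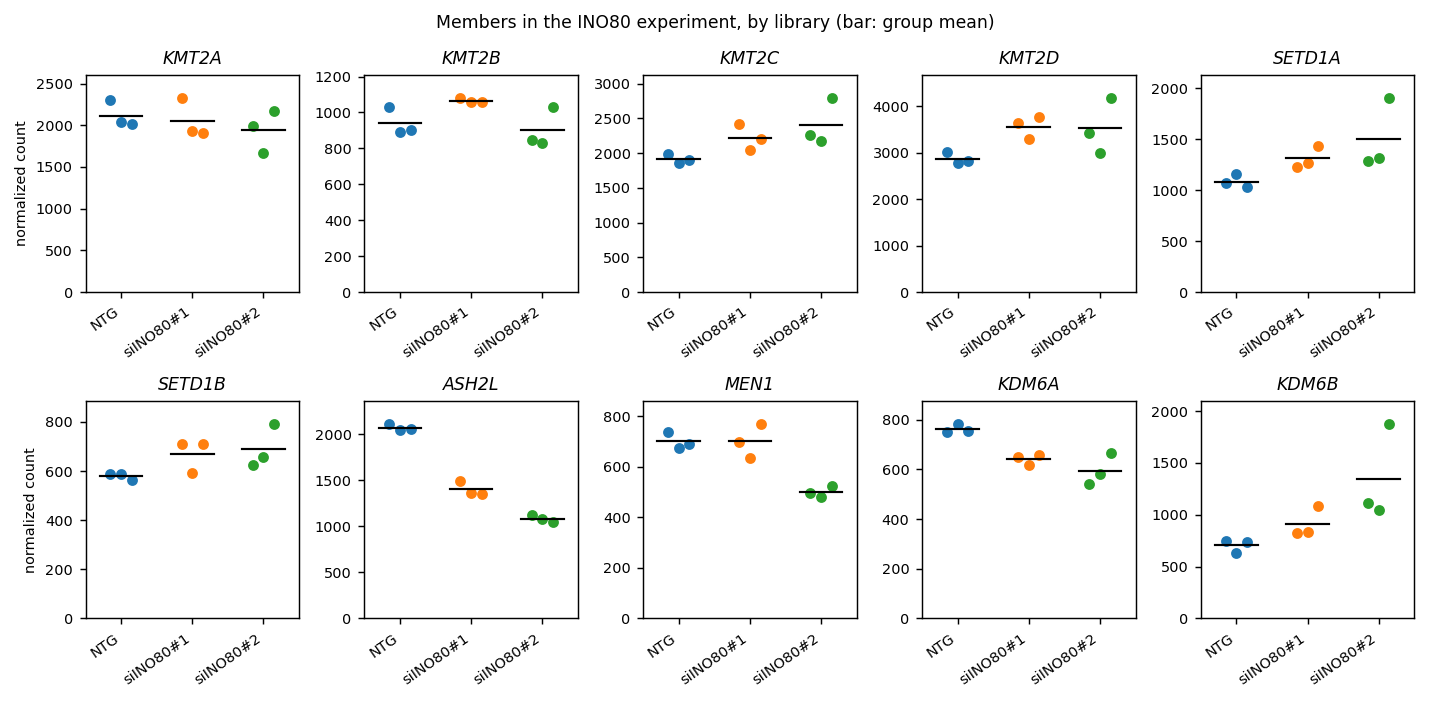
Normalized counts (vertical axes, from 0) of the 10 genes in each of the 9 libraries of the INO80 experiment, one panel per gene; points are libraries A, B and C from left to right within a group and bars are group means. The 3 siINO80#2 points of ASH2L lie below the 3 siINO80#1 points, which lie below the 3 NTG points. The siINO80#2 library C is the highest point of KMT2C, KMT2D, SETD1A, SETD1B and KDM6B.

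With siINO80#1 against NTG, 1 of the 10 members was higher and 2 were lower at a limma adjusted p under 0.05, against 20.7% of all 14034 tested genes higher and 20.8% lower. With siINO80#2, 4 were higher and 3 lower, against 26.6% and 28.4% of all tested genes. With 10 genes, these counts lie near what the shares of all genes would give, and they are not a result about the members as a group. The median log2 fold change of the members was 0.19 with siINO80#1 and 0.09 with siINO80#2, and that of all genes was 0.00 in both. With the transcript length trend removed, 0 members were higher and 2 lower with siINO80#1, against 20.8% and 22.0% of all tested genes. With siINO80#2, 2 were higher and 5 lower in that fit, against 27.6% and 28.5%.

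ASH2L showed the most extreme effect among the members with either siRNA. It had 2110.2, 2048 and 2053 normalized counts in the NTG libraries A, B and C, 1489, 1366 and 1350.3 with siINO80#1, and 1123, 1077 and 1052 with siINO80#2. The 3 groups did not overlap. ASH2L fell by a log2 fold change of -0.56 (SE 0.065, limma adjusted p = 7.47e-05) with siINO80#1 and -0.93 (SE 0.065, limma adjusted p = 1.43e-06) with siINO80#2, and ASH2L was lower with siINO80#2 than with siINO80#1 by a log2 difference of -0.37 (SE 0.065, limma adjusted p = 0.00319). It passed the threshold in all 18 alternative fits of each of these 3 comparisons. ASH2L lies on chromosome 8 from 38105493 to 38140080. STAR, taken as its neighbour on the other strand, had at most 142 normalized counts in these libraries. The sources used here do not give whether reads were counted by strand.

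MEN1 differed between the siRNAs. Its NTG libraries had 736, 672 and 691 normalized counts and its siINO80#1 libraries 699, 634 and 768, so these groups overlapped. The siINO80#2 libraries had 495, 480.2 and 521, below all others. The test gave a log2 fold change of -0.0032 (SE 0.087, limma adjusted p = 0.981) with siINO80#1, with a 95% interval of -0.20 to 0.19, and -0.49 (SE 0.087, limma adjusted p = 0.00073) with siINO80#2. The direct comparison of siINO80#2 with siINO80#1 gave -0.48 (SE 0.087, limma adjusted p = 0.0035). MEN1 lies on chromosome 11 from 64803516 to 64811294.

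Among the 6 methyltransferases the log2 fold changes lay between -0.13 and 0.45 with the INO80 siRNAs. KMT2D, the main enhancer H3K4 monomethylase together with KMT2C, had 3010.2, 2789 and 2834 normalized counts in NTG, 3641, 3289.7 and 3761 with siINO80#1 and 3434, 2991 and 4184 with siINO80#2. Its siINO80#1 libraries lay above NTG, and its siINO80#2 libraries overlapped NTG. Log2 fold changes were 0.31 (SE 0.11, limma adjusted p = 0.045) and 0.28 (SE 0.11, limma adjusted p = 0.0479). The siINO80#1 call was lost without any single one of NTG A, B or C, siINO80#1 A or C, or siINO80#2 A, and the siINO80#2 call without any of NTG A, B or C, siINO80#1 A, B or C, or siINO80#2 A or C. With the transcript length trend removed the values were 0.15 (limma adjusted p = 0.18) and 0.067 (limma adjusted p = 0.52).

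KMT2C had 1987, 1854 and 1902 normalized counts in NTG, 2417, 2050.3 and 2200.3 with siINO80#1 and 2257, 2168 and 2795 with siINO80#2. Both knockdown groups lay above NTG, with NTG A only just below the lowest siINO80#1 library. The log2 fold change was 0.32 (SE 0.10, limma adjusted p = 0.0183) with siINO80#2, a call that was lost without NTG B, and 0.21 (SE 0.10, limma adjusted p = 0.113) with siINO80#1, which passed only without siINO80#2 C (limma adjusted p = 0.0241). After removal of the length trend the siINO80#2 value was 0.12 (limma adjusted p = 0.189). KMT2C has partial copies elsewhere in the genome, among them BAGE2, which had at most 6.70 normalized counts in any library, and how reads were shared with such copies is not given in the sources used here.

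SETD1A, a promoter H3K4 trimethylase, had 1065, 1154 and 1033 normalized counts in NTG, 1227, 1270.1 and 1435 with siINO80#1 and 1287, 1316 and 1905 with siINO80#2. Every knockdown library lay above every NTG library, and siINO80#2 C stood well above the rest. SETD1A had a log2 fold change of 0.45 (SE 0.14, limma adjusted p = 0.0165) with siINO80#2 and 0.27 (SE 0.14, limma adjusted p = 0.136) with siINO80#1. The former was lost without NTG C (limma adjusted p = 0.0566), and the latter passed without siINO80#2 C (limma adjusted p = 0.0109). Once the length trend was removed the values were 0.32 (limma adjusted p = 0.0469) with siINO80#2 and 0.16 (limma adjusted p = 0.329) with siINO80#1.

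The other 3 enzymes did not pass the test with either siRNA. KMT2A ranged from 1904 to 2329 normalized counts in NTG and siINO80#1 and down to 1670 in siINO80#2 B, with log2 fold changes of -0.047 and -0.13 (limma adjusted p = 0.767 and 0.346). KMT2B had log2 fold changes of 0.18 and -0.066 (limma adjusted p = 0.152 and 0.584). IGFLR1, taken as its neighbour on the other strand, had at most 50.3 normalized counts in these libraries. SETD1B had log2 fold changes of 0.20 and 0.24 (limma adjusted p = 0.156 and 0.078). When the length trend was removed, KMT2A and KMT2B fell with siINO80#2, with log2 fold changes of -0.33 (limma adjusted p = 0.00729) and -0.23 (limma adjusted p = 0.0349). SETD1B had 0.062 and 0.077 in that fit (limma adjusted p = 0.633 and 0.51).

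The H3K27 demethylases moved apart. KDM6A had 749, 782 and 757 normalized counts in NTG, 651, 617 and 657 with siINO80#1 and 539.6, 582 and 664 with siINO80#2, and every knockdown library lay beneath the lowest NTG library. On the log2 scale KDM6A changed by -0.25 (SE 0.086, limma adjusted p = 0.0374) with siINO80#1 and -0.36 (SE 0.086, limma adjusted p = 0.00431) with siINO80#2. The siINO80#1 call was lost without any single one of the 6 libraries compared, and the siINO80#2 call held in all 18 alternatives. With the length trend removed both calls were kept, with log2 fold changes of -0.36 and -0.49.

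KDM6B had 747, 631 and 735 normalized counts in NTG, 829, 831 and 1083 with siINO80#1 and 1111, 1048 and 1873 with siINO80#2. All knockdown libraries lay above NTG, and siINO80#2 C was far above the other libraries of its group. The log2 fold change was 0.88 (SE 0.20, limma adjusted p = 0.00302) with siINO80#2 and 0.37 (SE 0.20, limma adjusted p = 0.162) with siINO80#1. KDM6B was higher with siINO80#2 than with siINO80#1 by 0.52 (SE 0.20, limma adjusted p = 0.0867). That difference passed in 2 of 18 alternatives, including the fit with the replicate letter as a block (limma adjusted p = 0.023). It ran from 0.25 to 0.67 when 1 library was left out. The siINO80#2 call held in all 18 alternatives, with the lowest value, 0.62, obtained without siINO80#2 C. The siINO80#1 value passed only in that same fit, because the spread is shared by all groups (limma adjusted p = 0.0189). Without siINO80#2 C, 7 rather than 3 members passed with siINO80#1, and the share of all tested genes that passed there was 49.2% instead of 41.6%. In the fit without a block no member was higher and 2 were lower, ASH2L and MEN1, against 9.48% of all tested genes higher and 12.6% lower with siINO80#2 than with siINO80#1.

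**Figure D2:**
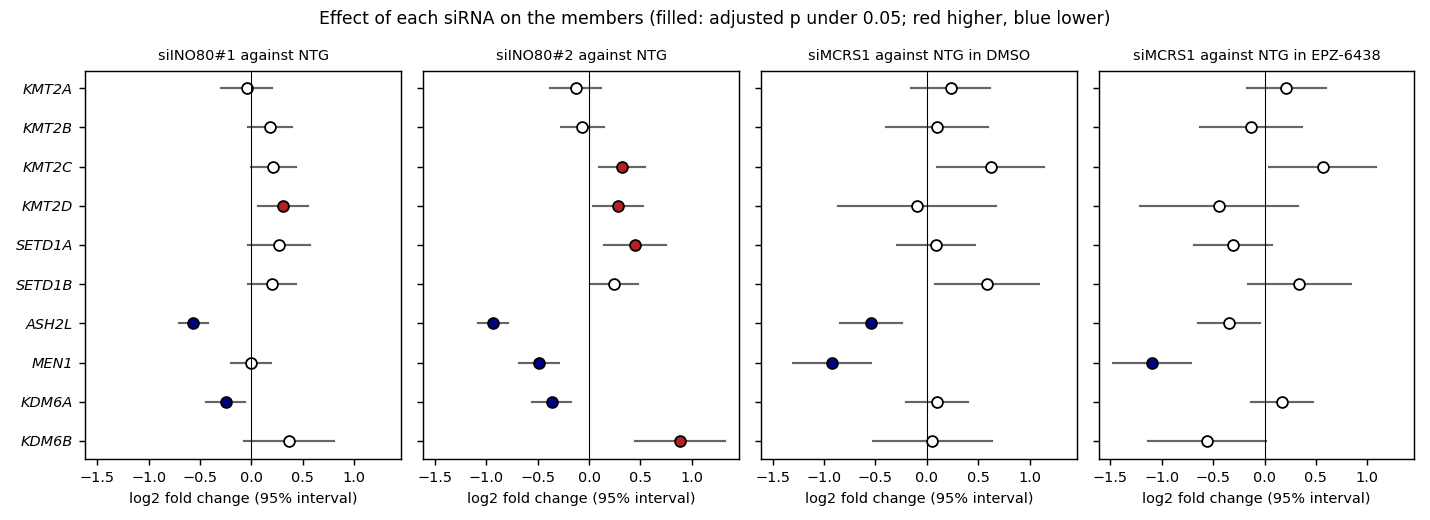
Log2 fold change of each of the 10 genes (horizontal axes) with its 95% interval, not adjusted for the number of genes tested, for the 4 comparisons of an siRNA with NTG; filled points passed a limma adjusted p of 0.05. ASH2L lies furthest to the left with both INO80 siRNAs and MEN1 with siMCRS1 in both treatments, and KDM6B lies furthest to the right with the INO80 siRNAs, filled only with siINO80#2.

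With siMCRS1 against NTG in DMSO, none of the 10 members was higher and 2 were lower, against 23.1% of all 14312 tested genes higher and 24.6% lower. In EPZ-6438 none was higher and 1 was lower, against 26.8% and 26.9% of all tested genes. At an unadjusted p of 0.05, 4 members passed in DMSO and 3 in EPZ-6438, against 54.6% and 58.9% of all tested genes. The median log2 fold change of the members was 0.09 in DMSO and -0.22 in EPZ-6438, and that of all tested genes 0.00 and 0.01. Rescaling all libraries to equal totals moved the median of all genes to -0.23 in both siMCRS1 comparisons, and only 27.1% and 30.2% of the calls over all genes were then in the higher direction, instead of 48.4% and 49.9%. The same rescaling moved the median of all genes to -0.08 and -0.11 with siINO80#1 and siINO80#2.

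MEN1 had 1278 and 1012 normalized counts in the DMSO with NTG libraries numbered 1 and 3, and 677, 578 and 549 in the 3 DMSO with siMCRS1 libraries. In EPZ-6438 it had 1116, 1379 and 1071 with NTG and 638 and 478 with siMCRS1. Every siMCRS1 library was far below every NTG library of either treatment. The effect of siMCRS1 was a log2 fold change of -0.92 (SE 0.17, limma adjusted p = 0.00135) in DMSO and -1.10 (SE 0.17, limma adjusted p = 0.000373) in EPZ-6438, and MEN1 passed in every alternative fit of both comparisons (20 and 19).

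ASH2L had 4166 and 3301 normalized counts in DMSO with NTG and 2912, 2442 and 2299 in DMSO with siMCRS1. In EPZ-6438 it had 3259, 3311 and 2774 with NTG and 2503 and 2388 with siMCRS1. The siMCRS1 libraries lay below NTG within each treatment, although the DMSO siMCRS1 library numbered 1 was above the lowest EPZ-6438 NTG library. The log2 fold change was -0.55 (SE 0.14, limma adjusted p = 0.00718) in DMSO, a call lost without DMSO NTG 1 (limma adjusted p = 0.0963), and -0.34 (SE 0.14, limma adjusted p = 0.0529) in EPZ-6438, which missed the threshold and passed it in 8 of 19 alternatives. Over all 20 alternatives in DMSO the adjusted p ranged from 5.38e-04 to 0.0963.

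**Figure D3:**
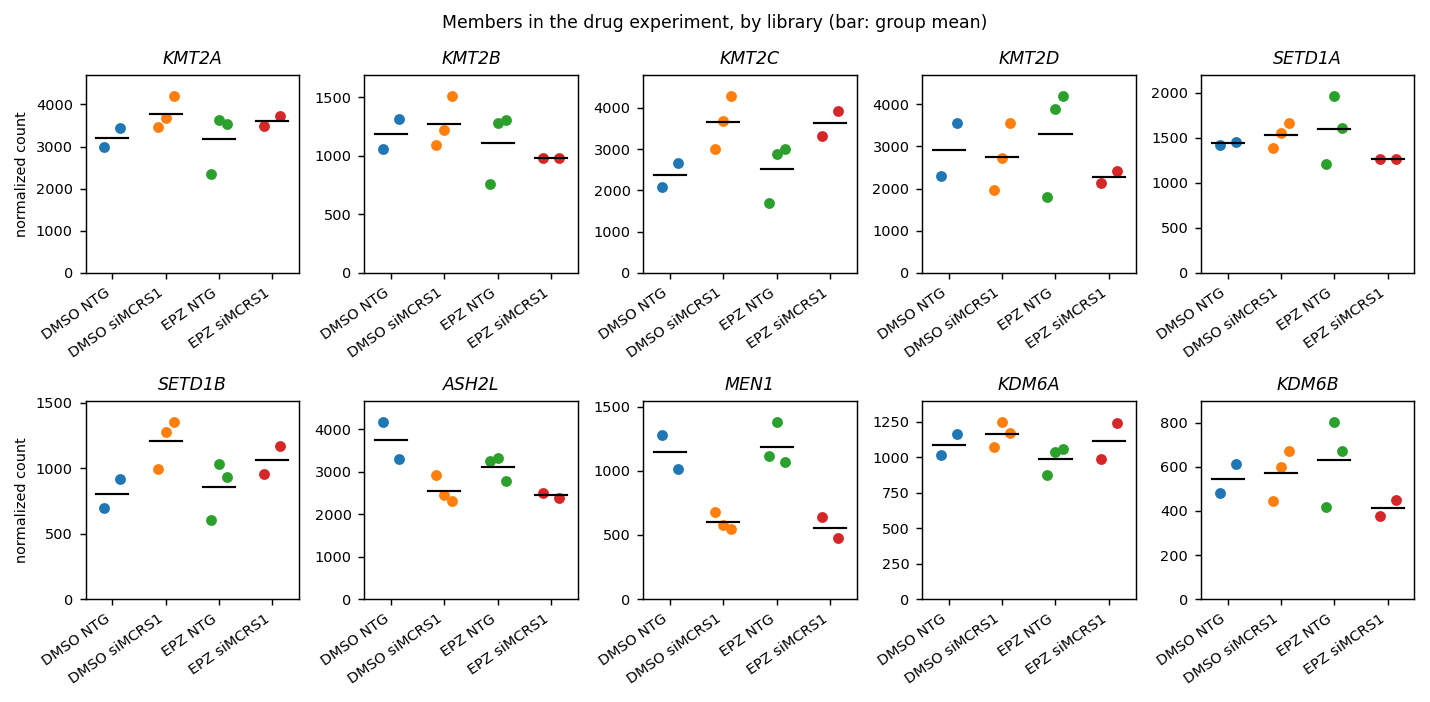
Normalized counts (vertical axes, from 0) of the 10 genes in each of the 10 libraries of the drug experiment, one panel per gene; points are libraries in the order of their column names and bars are group means (EPZ is EPZ-6438). MEN1 is lower in all 5 siMCRS1 libraries than in all 5 NTG libraries, and the first point of the DMSO NTG, DMSO siMCRS1 and EPZ-6438 NTG groups is the lowest of its group for every gene except ASH2L and MEN1.

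Among the enzymes, KMT2C and SETD1B were nearest to a call. KMT2C had 2075 and 2673 normalized counts in DMSO with NTG, 3008, 3684 and 4296 in DMSO with siMCRS1, 1698, 2872 and 3006 in EPZ-6438 with NTG and 3328 and 3936 in EPZ-6438 with siMCRS1. Its siMCRS1 libraries lay above NTG within each treatment. Log2 fold changes were 0.62 (SE 0.24, limma adjusted p = 0.0502) in DMSO and 0.56 (SE 0.24, limma adjusted p = 0.0655) in EPZ-6438. After removal of the length trend these were 0.41 (limma adjusted p = 0.0155) and 0.36 (limma adjusted p = 0.026), both past the threshold. With the column numbers as a block, over the 8 numbered libraries, the DMSO values of KMT2C and SETD1B were 0.56 (limma adjusted p = 0.00535) and 0.49 (limma adjusted p = 0.00621), although the labels do not carry these numbers.

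SETD1B had 694 and 916 normalized counts in DMSO with NTG and 994, 1277 and 1352 in DMSO with siMCRS1, which lay above them. In EPZ-6438 the values were 607, 1030.1 and 935 with NTG and 953 and 1172 with siMCRS1, which overlapped. The log2 fold changes were 0.59 (SE 0.23, limma adjusted p = 0.0541) and 0.34 (SE 0.23, limma adjusted p = 0.235). In DMSO, leaving out DMSO siMCRS1 1 or EPZ-6438 NTG 1 brought both KMT2C and SETD1B past the threshold, as did leaving out EPZ-6438 NTG 3 for KMT2C and EPZ-6438 NTG 2 for SETD1B.

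KMT2D varied widely between replicates, with 2295 and 3547 normalized counts in DMSO with NTG, 1973, 2721 and 3552 in DMSO with siMCRS1, 1794, 3892 and 4201 in EPZ-6438 with NTG and 2135 and 2417 in EPZ-6438 with siMCRS1. The log2 fold changes of siMCRS1 were -0.095 (SE 0.35, limma adjusted p = 0.844) and -0.44 (SE 0.35, limma adjusted p = 0.311). Once the length trend was removed they were -0.31 (limma adjusted p = 0.227) and -0.64 (limma adjusted p = 0.0194), so that KMT2D was called lower in EPZ-6438 in that fit. The libraries numbered 1 were the lowest of their groups for every member except ASH2L and MEN1, and they also had the lowest values of long against short transcripts in their groups. Without the 3 libraries numbered 1, KMT2D was lower with siMCRS1 in EPZ-6438 by -0.83 on the log2 scale (limma adjusted p = 0.0021), and 5 members were called there instead of 1, while 51.2% of all tested genes were called instead of 53.7%. These libraries were picked out after their values had been seen.

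The demethylases and the other enzymes were not called with siMCRS1 in the fit of the values as deposited. KDM6B had 479.7 and 612 normalized counts in DMSO with NTG, 443, 599 and 670.3 in DMSO with siMCRS1, 419, 802 and 671 in EPZ-6438 with NTG and 378 and 450.0 in EPZ-6438 with siMCRS1. The groups overlapped within each treatment, and the log2 fold changes were 0.054 (SE 0.26, limma adjusted p = 0.882) and -0.56 (SE 0.26, limma adjusted p = 0.0932). The EPZ-6438 value passed without EPZ-6438 NTG 1 (limma adjusted p = 0.00928), as did those of KMT2D and SETD1A, so that 4 members were called, against 51.8% of all tested genes. KDM6B and SETD1A also passed in EPZ-6438 with equal library totals, at -0.80 and -0.54 (limma adjusted p = 0.0222 and 0.0157), and with the length trend removed, at -0.71 and -0.43 (limma adjusted p = 0.016 and 0.0241). With the trend removed 4 members were lower and 1 higher in EPZ-6438, against 27.5% and 30.1% of all tested genes. KDM6A had log2 fold changes of 0.096 in DMSO and 0.17 in EPZ-6438 (limma adjusted p = 0.595 and 0.327), with 95% intervals of -0.21 to 0.40 and -0.13 to 0.47. KMT2A had 0.23 and 0.21, KMT2B 0.098 and -0.13, and SETD1A 0.088 and -0.31 as log2 fold changes in DMSO and in EPZ-6438. None of these 3 passed with the values as deposited, and SETD1A passed in EPZ-6438 in the alternatives named above. Without the 3 libraries numbered 1, which leaves a single DMSO with NTG library, SETD1A had -0.49 and KMT2B -0.39 in EPZ-6438.

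**Figure D4:**
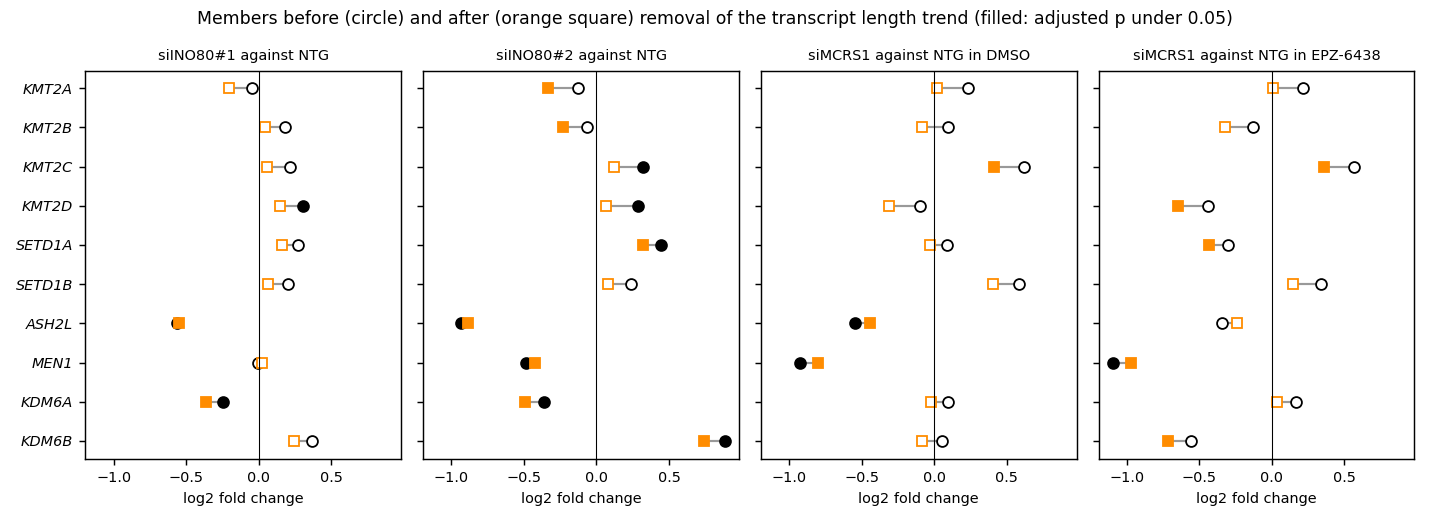
Log2 fold change of each of the 10 genes (horizontal axes) before (circles) and after (orange squares) removal of the trend of each library on transcript length, for the 4 comparisons of an siRNA with NTG; filled symbols passed a limma adjusted p of 0.05. KMT2A to KMT2D, SETD1A, SETD1B, KDM6A and KDM6B move to the left in every panel, and ASH2L and MEN1 move slightly to the right.

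Inhibition of EZH2 with EPZ-6438 gave no call among the members. Against DMSO in cells with NTG, 0 of 10 passed by limma, where 0.384% of all tested genes were called in either direction. At an unadjusted p under 0.05 also 0 passed, against 17.1% of all tested genes. With the column numbers as a block, 8.11% of all tested genes were called there. In that fit again 0 members passed, and 1 did at an unadjusted p under 0.05, against 27.4% of all tested genes. The log2 fold changes of the members ran from -0.26 for ASH2L (95% interval -0.56 to 0.045) to 0.17 for KDM6B (95% interval -0.41 to 0.74). In cells with siMCRS1, again 0 of 10 passed by limma, with 0.0908% of all tested genes called. At an unadjusted p under 0.05 again 0 passed, against 9.12% of all tested genes. KDM6B had the lowest value there, -0.45 (95% interval -1.02 to 0.13), and KMT2B followed at -0.36 (95% interval -0.85 to 0.14). Intervals this wide do not show that the compound left these mRNAs unchanged. edgeR on the recovered reads also called 0 members in both comparisons.

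The effect of siMCRS1 was not shown to differ between DMSO and EPZ-6438 for any member. The interaction was called for 0 of 10 members by limma, with 0 at an unadjusted p under 0.05, and for 0% of all tested genes (336 at an unadjusted p under 0.05, and 0 by edgeR). The most negative interactions were those of KDM6B, -0.61 (95% interval -1.43 to 0.20), and SETD1A, -0.39 (95% interval -0.93 to 0.14), on the log2 scale. The call of ASH2L in DMSO and its absence in EPZ-6438 therefore do not show a difference between the treatments.

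Among 31 other genes whose products methylate, demethylate or acetylate H3K4 or H3K27 or belong to these complexes, all of which were tested, 10 were higher and 5 lower with siINO80#1, 9 and 8 with siINO80#2, 9 and 6 with siMCRS1 in DMSO, and 10 and 8 with siMCRS1 in EPZ-6438. Of all tested genes 20.7% were higher and 20.8% lower, 26.6% and 28.4%, 23.1% and 24.6%, and 26.8% and 26.9% in the same order, so that most of these counts lie near the shares of all genes. When the length trend was removed the counts were 9 and 4, 9 and 8, 10 and 6, and 10 and 8. Within the shared core, DPY30 was lower in all 4, with log2 fold changes of -0.35, -0.21, -0.43 and -0.45 in that order. RBBP5 was lower with siINO80#1 (-0.25 (SE 0.082, limma adjusted p = 0.0315)), and WDR5 was higher with siMCRS1 (0.32 and 0.47). With the length trend removed DPY30, whose transcript of 0.688 kb is short, was no longer called with either INO80 siRNA (-0.18 and 0.032, limma adjusted p = 0.0816 and 0.745), while its calls with siMCRS1 were kept. RBBP5 was also called lower with siINO80#2 in that fit (-0.24, limma adjusted p = 0.0263). WDR5 was not called lower in any of the 4 comparisons, with the trend or without it.

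Of the 10 subunits particular to 1 kind of complex, 1 was higher and none lower with siINO80#1, none higher and 2 lower with siINO80#2, 2 higher and 4 lower with siMCRS1 in DMSO, and 2 higher and 5 lower in EPZ-6438. PAXIP1 and PAGR1, partners of KMT2C and KMT2D, were lower with siINO80#2 (-0.35 and -0.31), with siMCRS1 in DMSO (-0.80 and -0.72) and in EPZ-6438 (-0.99 and -0.78). WDR82, which brings the SETD1 complexes to RNA polymerase II, was higher with siMCRS1 (0.50 and 0.78), and CXXC1, their CpG-binding subunit, was higher with siINO80#1 (0.29) and lower with siMCRS1 (-0.41 and -0.46). HCFC2 was lower with siMCRS1 in both treatments (-0.53 and -0.76), HCFC1 in EPZ-6438 (-0.66), and BOD1, a partner of SETD1B, was higher (0.46 and 0.59). After removal of the length trend CXXC1 was no longer called with siMCRS1 (limma adjusted p = 0.0559 in EPZ-6438 and higher in DMSO). In that fit HCFC1 was also called lower with siMCRS1 in DMSO (-0.63, limma adjusted p = 0.0025), and NCOA6 in EPZ-6438 (-0.46, limma adjusted p = 0.0143). CXXC1 and BOD1 were also called higher there with siINO80#2 (0.24 and 0.24, limma adjusted p = 0.0139 and 0.0161).

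The methyltransferases linked to H3K4 outside the complexes held the largest rises. SETD7, a monomethylase with many protein substrates besides histone H3, was higher in all 4 comparisons, by 1.00, 1.64, 2.43 and 2.54 on the log2 scale (limma adjusted p = 0.000209, 4.06e-06, 0.000842 and 0.000483). ASH1L, now known mainly for methylating H3K36, was higher by 0.93, 0.57, 0.75 and 0.72. SMYD3 was lower with both INO80 siRNAs (-0.60 and -0.66) and with siMCRS1 in EPZ-6438 (-0.49), and KMT2E was higher with siINO80#1 (0.41). Once the length trend was removed the calls of SETD7 and ASH1L were kept in all 4 comparisons, SMYD3 was no longer called with siMCRS1 in EPZ-6438 (limma adjusted p = 0.0812), and KMT2E was also called with siINO80#2, as lower (-0.38, limma adjusted p = 0.0086). SMYD2 was called higher with siINO80#2 and with siMCRS1 in EPZ-6438 in the fit of the values as deposited. With the trend removed SMYD2 was higher in all 4 comparisons (0.29, 0.41, 0.53 and 0.70, limma adjusted p = 0.00769, 0.000608, 0.00369 and 0.000493).

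The H3K4 demethylases, which remove the mark, gave 3, 4, 3 and 3 higher of 5 and none lower in the same order of comparisons, beside 20.7%, 26.6%, 23.1% and 26.8% of all tested genes higher. KDM1A (LSD1) was higher by 0.25, 1.02, 0.55 and 0.51, KDM5A by 0.67, 0.77, 0.70 and 0.77, and KDM5B by 0.51, 0.68, 0.93 and 1.07 on the log2 scale. KDM1B was higher with siINO80#2 (0.31). The transcripts of KDM5A and KDM5B, at 10.7 and 9.29 kb, are among the long ones, and with the length trend removed the values were 0.53, 0.60, 0.51 and 0.56 for KDM5A and 0.37, 0.52, 0.74 and 0.87 for KDM5B, all still called. In that fit KDM5C was called lower with siMCRS1 in EPZ-6438 (-0.22, limma adjusted p = 0.045). KDM7A, a demethylase of H3K9 and H3K27, was higher in all 4 (0.32, 0.28, 0.78 and 0.81), and PHF8, a related enzyme, with siINO80#1 (0.33). With the trend removed KDM7A was no longer called with siINO80#2 (limma adjusted p = 0.162), nor PHF8 with siINO80#1 (limma adjusted p = 0.119).

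Of the 6 writers at H3K27, EZH1, the second catalytic subunit of PRC2, was lower in all 4 comparisons (-0.40, -0.45, -0.44 and -0.67). SUZ12 was lower with both INO80 siRNAs (-0.20 and -0.60), and EZH2 and EED only passed with siINO80#2 (-0.47 and -0.49), while CREBBP, an H3K27 acetyltransferase, was higher with both INO80 siRNAs (0.41 and 0.41). When the length trend was removed the calls of EED (limma adjusted p = 0.0644) and of CREBBP, a transcript of 10.8 kb (limma adjusted p = 0.0714 and 0.0754), were lost, and those of EZH1, SUZ12 and EZH2 were kept. No gene of the 31 was called for EPZ-6438 against DMSO by limma, beside 0.384% of all tested genes in NTG and 0.0908% in siMCRS1. At an unadjusted p under 0.05 there were 4 in NTG and 1 in siMCRS1, against 17.1% and 9.12% of all tested genes.

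**Figure D5:**
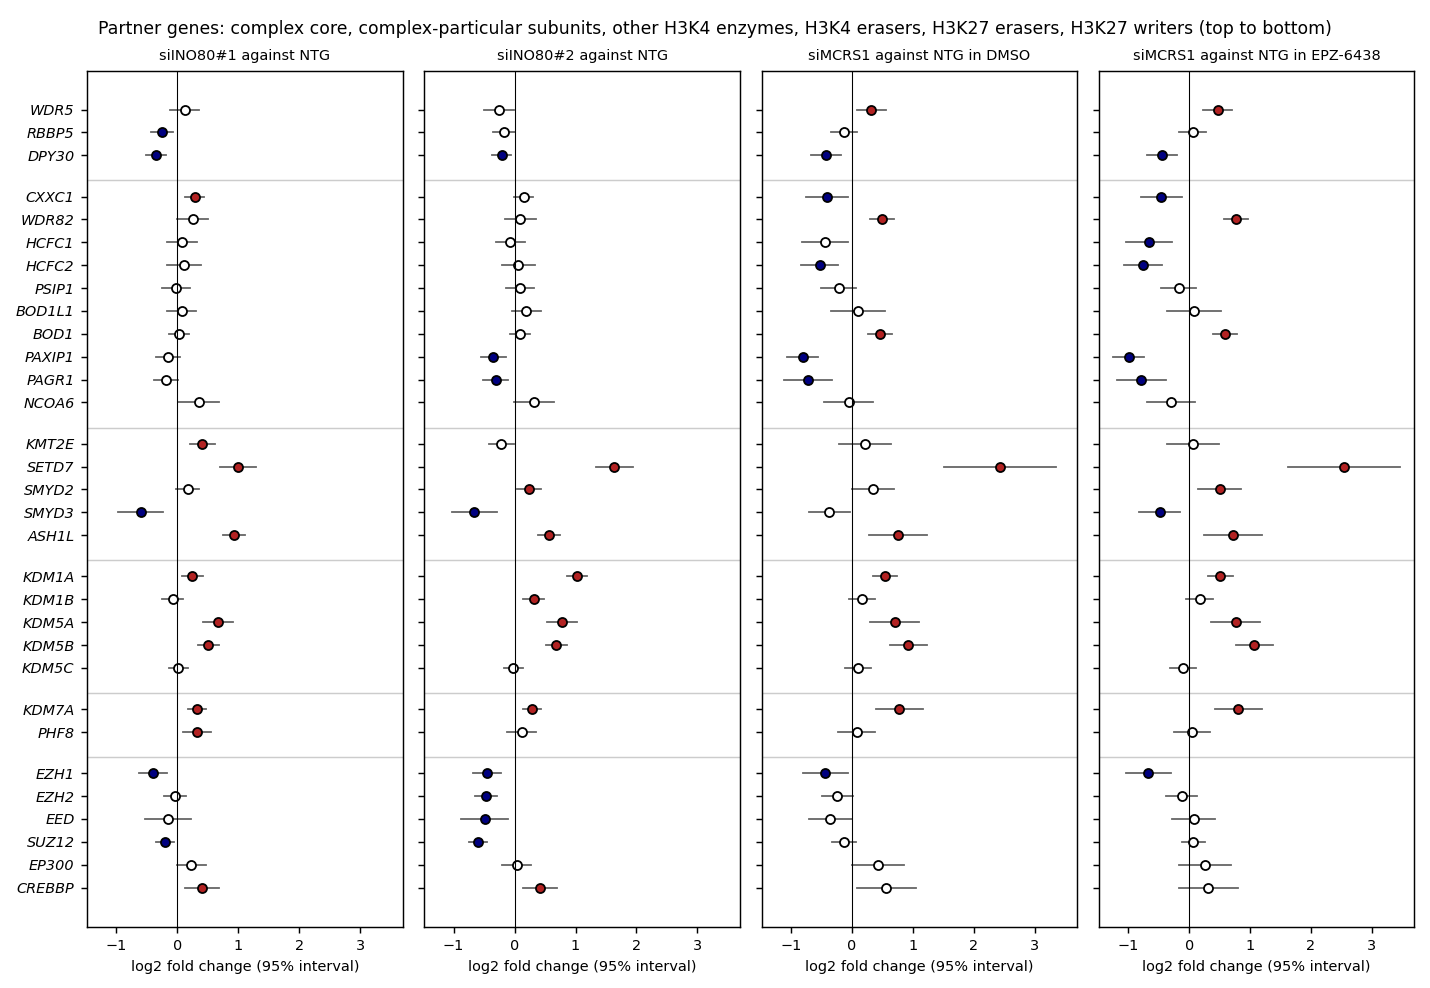
Log2 fold change (horizontal axes) with its 95% interval, not adjusted for the number of genes tested, of 31 genes of the same pathways for the 4 comparisons of an siRNA with NTG; filled points passed a limma adjusted p of 0.05. SETD7 lies furthest to the right in every panel, KDM5A, KDM5B and KDM7A are filled to the right in all 4, and DPY30 and EZH1 are filled to the left in all 4.

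Across all 19 libraries, after the mean of each table was subtracted, 2 pairs of members had profiles with a Pearson's r over 0.9. The r between KMT2C and SETD1B was 0.96 and that between SETD1A and KDM6B 0.93, and the lowest r among the pairs given here was that of KMT2C and MEN1, -0.73. ASH2L and MEN1 had r of 0.75 over the 9 libraries of the INO80 experiment and 0.87 over the 10 of the drug experiment. Among 11410 other genes with a mean of at least 50 in both tables, the one most like each member was PARP2 for ASH2L (r = 0.98), ACP2 for MEN1 (0.99), BPTF for KMT2C (0.97), VPS13B for KMT2D (0.92), CREBBP for SETD1B (0.95), PLEKHA6 for both SETD1A (0.92) and KDM6B (0.93), TLK1 for KDM6A (0.88), GIGYF2 for KMT2A (0.88) and SHANK2 for KMT2B (0.88). These values describe libraries that share groups and length shifts, and no test was made of them.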

How the data were processed

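Stranded mRNA libraries of HepG2 cells were compared in 2 experiments. For each experiment the authors deposited a table whose values, a signal that is never below 0, are counts per gene scaled with a single size factor in each library. Per the labels, kallisto, DESeq2 and GRCh38 were used in processing, with no versions or roles. Every value (100%, tolerance 0.01) was a whole multiple of its library's step, which gave numbers taken as reads, although rounded estimates of counts would also be whole. No column was set aside.

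Group membership follows the labels. Most columns of the drug table, assigned to groups only, carry numbers instead of the labels' letters. Genes with a mean of at least 10 were tested on log2(value + 1), which understates changes of low genes, with limma 3.58.1 in R 4.3.3 (trend, 1 fit per table, all groups, no block) and Benjamini-Hochberg adjustment over all tested genes at 0.05. Named genes were all 10 members, the knockdown targets, and genes of 6 partner lists that passed with both INO80 siRNAs or had the 3 largest changes of their list in a comparison, and a few others that passed were chosen after their values were seen. Members and lists were chosen with earlier results of these data known. Fits were tested on simulated counts.

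Alternatives were other pseudocounts (0.1 and 5), filters (none, or a mean of 50), equal totals, quantile normalization, edgeR 4.0.16 on the reads, each library left out and, for the INO80 experiment, a replicate block, since letters paired NTG with siINO80#1 by correlated deviations (0.14 to 0.26) but not with siINO80#2. Removal of the length trend (loess, span 0.3, 92.9% and 92.5% of tested genes), a block from column numbers and leaving out the libraries numbered 1 were added after the values were seen. Lengths are of MANE Select transcripts in GENCODE v44, or of the longest transcript where a gene had none. Positions and upstream windows are from RefSeq GRCh38.p14. Figures were drawn with matplotlib 3.10.9 in Python 3.11.15.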

Additional observations from a re-analysis of the deposited data

How the results depend on the processing

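Of the 19 called effects of members and knockdown checks, 318 of 350 alternative values kept the call, 32 lost it and none changed sign. The called losses concerned KMT2D with both INO80 siRNAs, KDM6A with siINO80#1, KMT2C and SETD1A with siINO80#2 and ASH2L with siMCRS1 in DMSO. The number of members called with siINO80#1 was 1 without a filter on low values, against 22.3% of all tested genes. It was 1 to 7 when a library was left out, against 33.6% to 49.2% of all tested genes. With siMCRS1 in DMSO it was 4 at a mean of at least 50, with a replicate block from column numbers and without the libraries numbered 1, and 1 to 4 when a library was left out. With siMCRS1 in EPZ-6438 it was 2 at a mean of at least 50, after quantile normalization and by edgeR. The shares of all tested genes there were 59.6%, 50.8% and 54.0%. The number of members was 4 with equal totals and 5 with the length trend removed, against 53.2% and 57.5% of all tested genes. When a library of a group of 3 was left out it was 1 to 4, against 48.9% to 52.9%. The cause of these shifts was not tested.

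In the INO80 experiment same-lettered libraries had correlations of deviations from -0.077 to 0.26, over 0.1 in 5 of 9 pairs, against 2 of 18 for different letters. All 3 pairs of NTG with siINO80#1 were over 0.1 (0.25, 0.26 and 0.14) and every library correlated best with its own letter there, but not in the pairs with siINO80#2, and the labels do not say what a letter shares. With the replicate block 3 and 7 members were called with siINO80#1 and siINO80#2, the same counts as without it. No call of a member was lost or gained there. Between the siRNAs 3 instead of 2 members were called, and KDM6B (0.52) passed with a limma adjusted p of 0.023. Of all tested genes 45.1%, 57.9% and 25.6% were called with the block in these 3 comparisons. In the drug experiment same-numbered libraries had correlations over 0.1 in 6 of 7 pairs, against 7 of 30 for different names, but the labels carry no such numbers. The deviations of the 2 DMSO with NTG libraries mirror each other, so these pairs are not separate observations.

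Effects that changed sign were all uncalled. With equal totals, siMCRS1 in DMSO gave -0.0041 for KMT2A, -0.14 for KMT2B, -0.15 for SETD1A, -0.14 for KDM6A and -0.18 for KDM6B, and in EPZ-6438 -0.027 for KMT2A and -0.071 for KDM6A. Quantile normalization gave -0.016 for KMT2A in EPZ-6438. With the length trend removed, siMCRS1 in DMSO gave -0.084 for KMT2B, -0.027 for SETD1A, -0.021 for KDM6A and -0.086 for KDM6B, and siINO80#1 gave 0.024 for MEN1, for which edgeR gave 0.0035. The block from column numbers gave -0.00088 for SETD1A and -0.068 for KDM6B in DMSO. Leaving out 1 library, values ran from -0.14 to 0.014 for KMT2A and -0.072 to 0.066 for MEN1 with siINO80#1, -0.17 to 0.0020 for KMT2B with siINO80#2, -0.055 to 0.25 for KMT2B, -0.41 to 0.22 for KMT2D and -0.12 to 0.23 for KDM6B with siMCRS1 in DMSO, -0.39 to 0.0028 for KMT2B with siMCRS1 in EPZ-6438, and -0.031 to 0.44 for KDM6B with EPZ-6438 in NTG. Groups of 2 or 3 libraries limit every test here.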
